A study of Mus musculus with 70 samples.

Results

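Total liver of male mice fed a NASH (nonalcoholic steatohepatitis) diet for 24 weeks was compared between mice labelled OpnKI Mye (KI, 4 libraries) and mice labelled Lyz2.Cre+/+ alone (WT, 4 libraries). The 8 libraries were taken from the male liver table by the diet and genotype labels, out of 70 libraries in the series. The KI name denotes osteopontin (Opn, gene Spp1) placed in myeloid cells, and the WT mice carry the Cre recombinase at the Lyz2 locus, which is active in macrophages and neutrophils. The KI label does not state a Cre allele. The other libraries are livers of the same 2 genotypes on a control diet, livers of female mice, and sorted liver resident macrophages. The labels name neither the strain nor the composition of the diet, and they do not say whether replicates are separate animals, so the p-values measure the spread between these libraries.

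Osteopontin is a secreted, integrin- and CD44-binding phosphoprotein that is made in liver by cholangiocytes, stellate cells and macrophages when tissue is injured. In steatohepatitis, fat-laden hepatocytes are accompanied by lipid-associated macrophages, which express Trem2, Gpnmb and Spp1, and by stellate cells that deposit collagen. Hepatocytes of adult male and female mice also differ in a set of genes set by the sex-specific pattern of growth hormone release.

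Several features of the libraries stand beside every result below. WT control replicates 3 and 4 had high counts of Xist and almost none of the Y-linked Ddx3y, against their male label, and differed from each other by less than the sampling noise, so they were averaged and counted as 1 sample. WT NASH replicate 1 lay farthest from the other libraries, and only some of the counts that move without it are given with the groups below. Over all genes 3799 then passed instead of 4810. Lower calls fell from 14 to 11 for collagens, 14 to 11 for collagen processing and 22 to 18 for the proteoglycan list. They fell from 10 to 8 for stellate cell markers, 12 to 8 for TGF-beta signalling and 11 to 8 for MHC class II genes. They fell from 10 to 7 for oncofetal genes and rose from 23 to 25 for fatty acid oxidation genes. Short transcripts were relatively more abundant in WT and long ones in KI: the median log2 fold change was -0.29 in the fifth of genes with the shortest exonic length and 0.32 in the fifth with the longest, against a median of -0.02 over all 12988 genes tested. The same ordering was present on the control diet, with medians of -0.19 and 0.20, and its part in the results was not tested beyond the fit with length offsets quoted below. Cytosolic ribosomal protein genes took 1.22% to 1.61% of counts in WT NASH and 0.875% to 1.05% in KI NASH libraries. Lyz2, the locus that carries Cre, was at 250.2, 219.8, 127 and 171 CPM in WT and 18.3, 55.0, 1.12 and 42.7 CPM in KI, although female WT livers under the same genotype label held 1.34 to 2.27 CPM. Its log2 fold change of -2.72 ± 0.95 (adjusted p = 0.037) was not past the threshold without WT replicate 1 or 2 or KI replicate 1, 3 or 4, or with length offsets (adjusted p = 0.063).

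**Figure D1:**
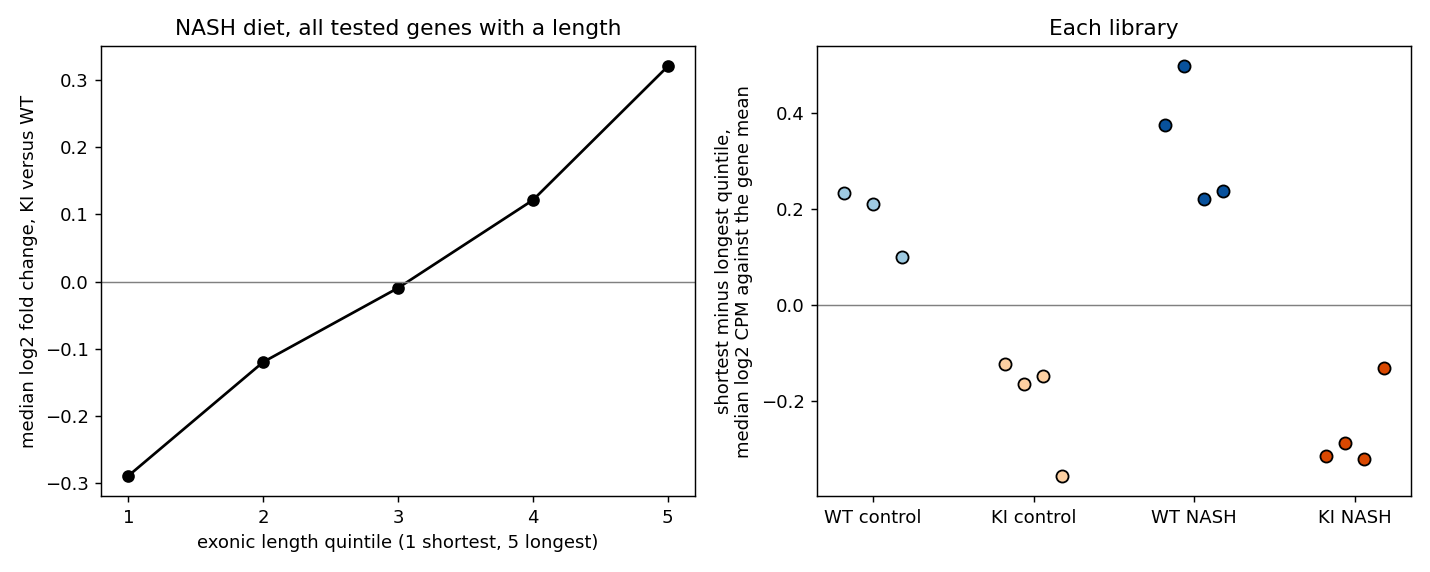
Left, the median log2 fold change of KI against WT livers on the NASH diet (y axis) by quintile of exonic length (x axis, 1 shortest). Right, the median log2 CPM of the shortest minus the longest quintile, against each gene's mean, in each male liver library. WT libraries sit between 0.10 and 0.50 and KI libraries between -0.36 and -0.12, with both diets showing the same order.

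Spp1 transcript was lower, not higher, in the libraries labelled KI. Its level was 562, 148, 294 and 126 CPM (counts scaled to a common library size by TMM) in WT replicates 1 to 4, and 38.5, 66.0, 22.5 and 25.7 CPM in KI. All KI libraries lay below all WT libraries, and WT replicate 1 was the highest. The log2 fold change, KI against WT, was -2.89 ± 0.45 (SE, n = 4 and 4), with an adjusted p of 0.00044 in edgeR's quasi-likelihood test, and it ranged from -3.29 to -2.32 when single libraries were left out. On the control diet the levels were 25.6 to 28.9 CPM in WT and 14.5 to 29.8 CPM in KI, and the difference between the diets' contrasts did not pass (-2.66, adjusted p = 0.067). In whole tissue, fewer cells of a type and less RNA per cell cannot be told apart, here and below. Counts per gene symbol do not separate transcripts of the inserted gene from those of the native one.

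Across all genes, 4810 of 12988 passed an adjusted p of 0.05, or 37%, with 2546 (19.6%) higher and 2264 (17.4%) lower in KI. KI and WT values did not overlap for 4660 genes (35.9%). When the fold itself was tested against 1.5, 863 genes passed (6.64%), 364 higher and 499 lower. The first principal component of male liver held 43.5% of the variance and placed WT NASH libraries between 38.4 and 91.7, with replicate 1 farthest. KI NASH libraries were placed between -27.3 and -7.62, KI control libraries between -36.0 and -26.6, and WT control libraries between -29.0 and 17.2, the averaged library being the last.

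**Figure D2:**
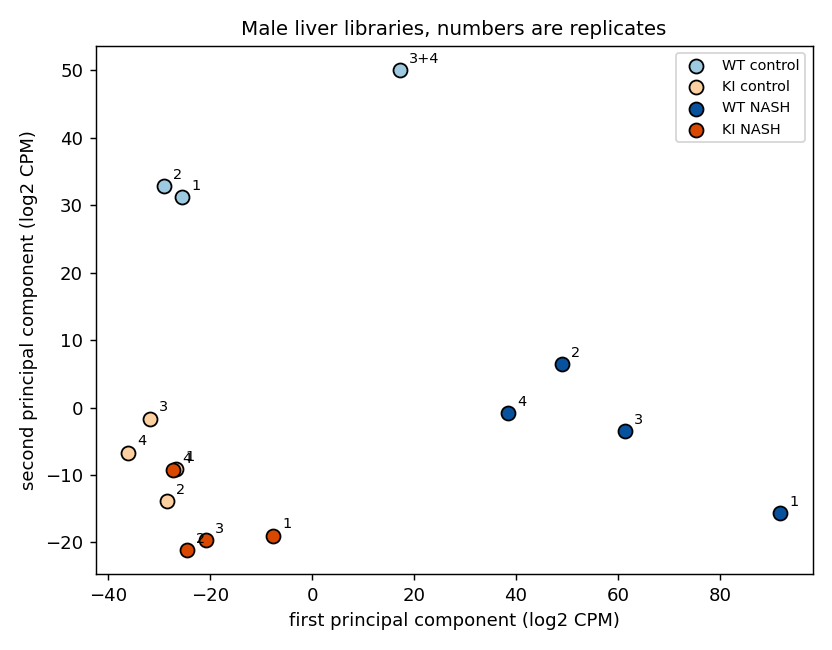
Male liver libraries on the first (x) and second (y) principal component of log2 CPM, coloured by genotype and diet and numbered by replicate. WT NASH libraries stand alone at 38.4 and above on the first axis, while KI NASH libraries lie at -7.62 and below.

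**Figure D3:**
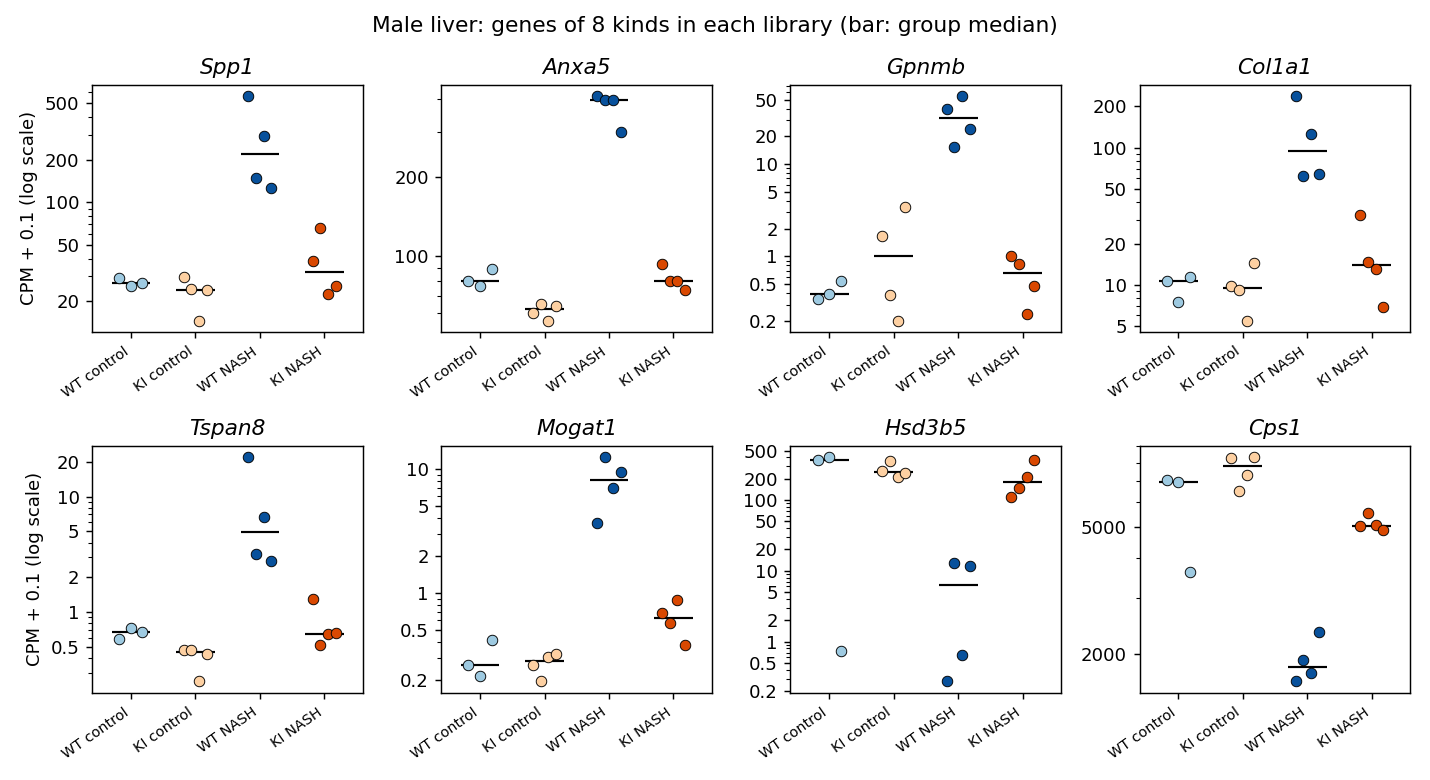
Levels of 8 genes (y axis, CPM + 0.1, log scale) in each male liver library by group (x axis), with a bar at the group median. WT and KI libraries on the NASH diet do not overlap in any of the 8 panels, and the low point for Hsd3b5 in WT control is the averaged replicate 3 and 4.

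Many hepatocyte genes of the male pattern were lower in WT than in KI livers on the NASH diet, and many genes of the female pattern showed the opposite order. The starts of 3 genes are shown, 1 from each of 3 lists on which the results turn, chosen after their values were seen: Moxd1, a monooxygenase-like gene of male liver, Cyp2a4, a steroid 15-alpha-hydroxylase of female liver, and Gpnmb, a marker of lipid-associated macrophages described further on. Each window runs from 250 bases before to 50 bases after the transcription start (RefSeq, GRCm38.p6, strand +): Moxd1 at chr10:24223267-24223566, Cyp2a4 at chr7:26306942-26307241 and Gpnmb at chr6:49036268-49036567. Capitals mark a match to the STAT motif TTCNNNGAA in Moxd1 and to the AP-1 motif TGANTCA in Gpnmb, each of which reads the same on both strands; they start at positions -150 and 9 from the transcription start. The Cyp2a4 window holds no match to TTCNNNGAA.
Moxd1: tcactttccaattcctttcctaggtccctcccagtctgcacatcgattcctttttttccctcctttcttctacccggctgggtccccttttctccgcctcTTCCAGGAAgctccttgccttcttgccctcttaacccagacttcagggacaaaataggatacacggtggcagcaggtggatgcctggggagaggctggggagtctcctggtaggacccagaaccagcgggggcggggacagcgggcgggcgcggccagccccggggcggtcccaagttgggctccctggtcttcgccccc
Cyp2a4: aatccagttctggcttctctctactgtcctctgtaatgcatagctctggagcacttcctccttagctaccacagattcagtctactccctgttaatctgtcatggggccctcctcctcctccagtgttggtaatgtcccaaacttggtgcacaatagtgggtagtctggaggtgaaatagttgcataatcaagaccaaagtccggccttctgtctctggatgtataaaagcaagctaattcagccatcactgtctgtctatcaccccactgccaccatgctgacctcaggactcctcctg
Gpnmb: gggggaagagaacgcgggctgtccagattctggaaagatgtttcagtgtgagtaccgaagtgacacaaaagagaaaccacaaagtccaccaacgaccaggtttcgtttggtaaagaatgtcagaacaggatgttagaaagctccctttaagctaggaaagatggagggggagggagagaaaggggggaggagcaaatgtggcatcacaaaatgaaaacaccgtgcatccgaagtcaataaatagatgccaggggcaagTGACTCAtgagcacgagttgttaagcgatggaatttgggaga
TTCNNNGAA was present in 2726 of 32851 promoter windows of this length (8.3%) and TGANTCA in 2565 (7.8%). Of the male-biased genes 2 of the 21 with a window held TTCNNNGAA (9.5%), of the female-biased genes 2 of 18 (11.1%). Among lipid-associated macrophage markers 5 of 15 held TGANTCA (33.3%), and among collagens 1 of 14 (7.1%). In the lists a gene was counted if any of its windows matched, whereas the shares over all windows count each window, so the units differ. These are matches of letters and not evidence of binding.

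Moxd1 was at 0.131, 0.221, 0.0825 and 0.0393 CPM in WT and 8.26, 78.6, 263 and 214 CPM in KI. It was near its detection limit in all WT livers and spanned a wide range in KI, with a log2 fold change of 10.23 ± 2.01 and an adjusted p of 0.0018, but it did not pass in limma-voom with sample quality weights (adjusted p = 0.27). Hsd3b5, a steroid dehydrogenase of male hepatocytes, was at 0.174, 12.6, 0.536 and 11.8 CPM in WT and 109, 146, 212 and 366 CPM in KI. The groups were separated by a wide gap, with a log2 fold change of 5.06 ± 1.31 (adjusted p = 0.0085). Cyp7b1, the oxysterol 7-alpha-hydroxylase, was at 31.0, 94.1, 40.3 and 104 CPM in WT and 440.1, 572, 482 and 789 CPM in KI (3.08 ± 0.66, adjusted p = 0.0028). C8b, which encodes a chain of complement C8 and is also male-biased, was at 101, 86.6, 57.8 and 121 against 368, 495, 594 and 584 CPM. Its log2 fold change was 2.48 ± 0.44 (adjusted p = 0.00095). Mup1, a major urinary protein gene, was 6.47 higher on the log2 scale, 7.95 without WT replicate 4 and 5.16 without KI replicate 4, and did not pass in limma-voom with sample quality weights (adjusted p = 0.073).

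Of 29 male-biased hepatocyte genes tested, 19 were higher in KI, none was lower, and 10 did not pass, with a median log2 fold change of 2.49. For 22 of them all KI libraries exceeded all WT libraries, against 19.4% over all genes tested. The count of genes called higher was 11 without WT replicate 1 and 11 without WT replicate 3. Mup20, the darcin pheromone gene, did not pass, at -0.03 (adjusted p = 0.98), and Mup3 was at 1.56 (adjusted p = 0.072). Major urinary protein genes are near-identical copies, so their counts are uncertain.

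Cyp2a4 was at 599, 26.4, 39.1 and 15.1 CPM in WT and 1.5, 1.31, 1.08 and 1.25 CPM in KI. WT replicate 1 was far above the other WT livers, and all of them lay above KI; the log2 fold change was -7.04 ± 1.92 (adjusted p = 0.011), and -4.39 without WT replicate 1. Acot3, a peroxisomal acyl-CoA thioesterase, was at 5.32, 22.4, 69.8 and 79.6 CPM in WT and 2.51, 3.46, 0.744 and 0.882 CPM in KI (-4.58 ± 1.24, adjusted p = 0.011). Vldlr, the very low density lipoprotein receptor, was at 3.05, 7.52, 9.32 and 9.31 CPM in WT and 0.912, 0.209, 0.541 and 0.696 CPM in KI (-3.61 ± 0.73, adjusted p = 0.0021). Acot3 is also in the fatty acid oxidation and PPARA target list, and Vldlr is in the lipid droplet and PPARG target list. Both of those lists are given further on. Of 23 female-biased genes tested 10 were lower and none higher, with a median of -2.69. For 14 of them all KI libraries lay under all WT libraries, against 16.4% over all genes tested. The count of genes called lower was 5 without KI replicate 3 and 17 without the averaged WT control library, which held Cyp2a4 at 2236 CPM. All 4 WT NASH libraries held Ddx3y and almost no Xist, as KI libraries did.

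**Figure D4:**
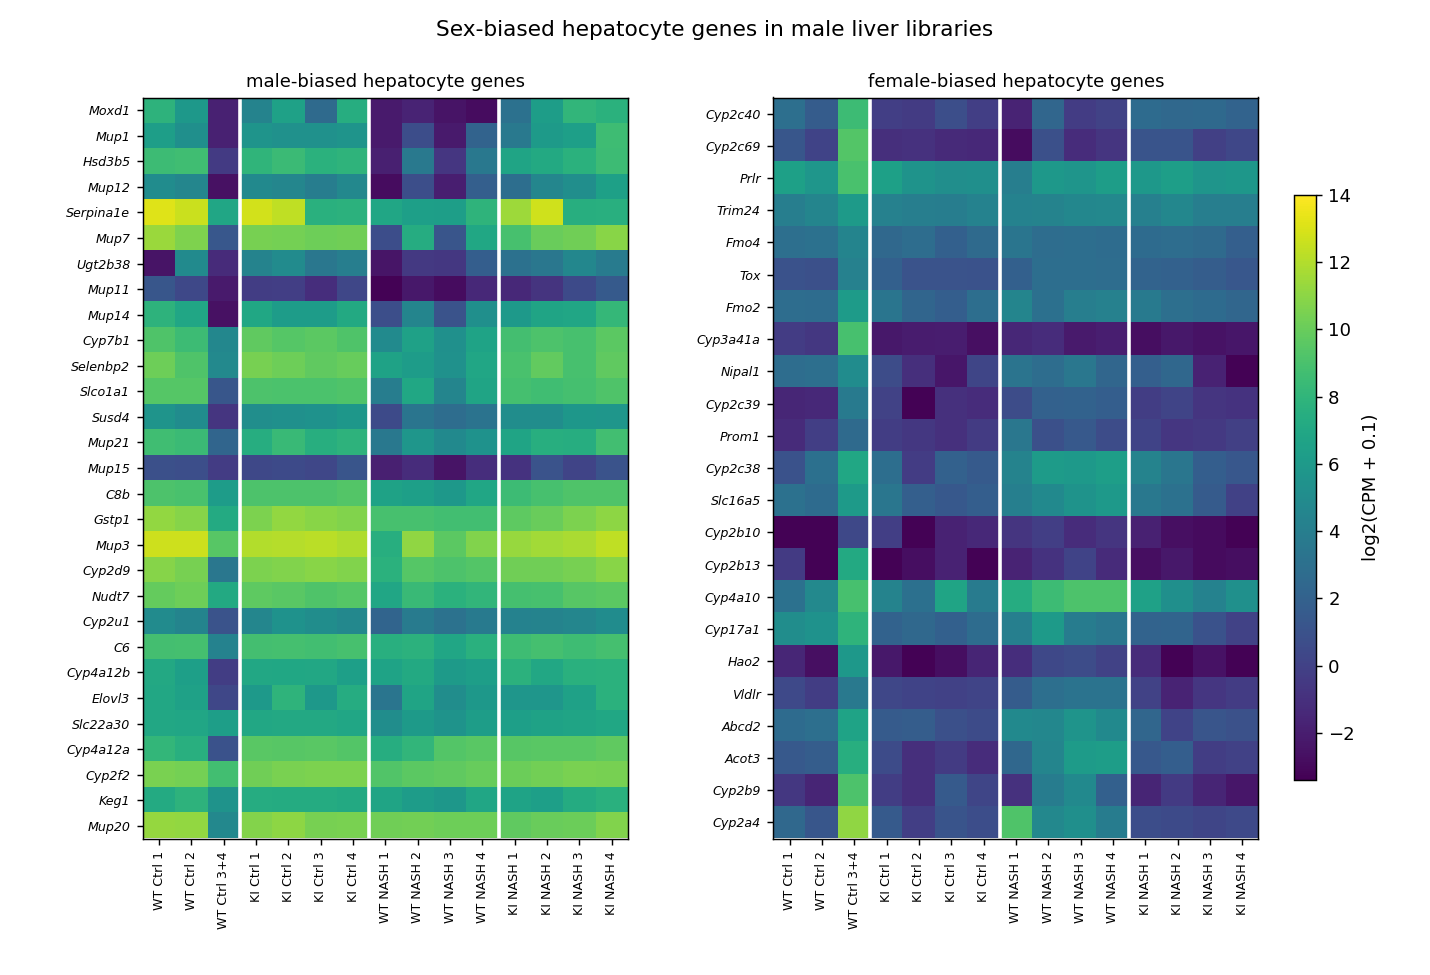
Heat maps of log2(CPM + 0.1) for the tested male-biased and female-biased hepatocyte genes (rows) in each male liver library (columns). Many male-biased genes are darker in WT NASH than in KI NASH columns, and 10 of 29 did not pass. Hsd3b5, with 0.174 to 12.6 CPM against 109 to 366 CPM, is among the largest differences. The averaged WT control 3+4 column carries the female pattern.

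Among 11 growth hormone and IGF axis genes 4 were higher and 1 lower. Igfals, which carries IGF1 in plasma, was at 40.0, 77.0, 68.2 and 118 CPM in WT and 125, 133, 152 and 161 CPM in KI (0.91 ± 0.26, adjusted p = 0.014). Igf1 was at 317, 429, 392 and 508 against 612, 668, 616 and 694 CPM (0.65 ± 0.16, adjusted p = 0.0063), and did not pass with length offsets (adjusted p = 0.089), under which 2 genes of the list were higher. Igfbp3, an IGF-binding protein, was lower, at 48.4, 48.1, 38.7 and 42.0 CPM in WT and 22.9, 9.01, 28.5 and 24.4 CPM in KI (-1.06 ± 0.28, adjusted p = 0.0088).

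In the oncostatin M and STAT3 axis 7 of 12 genes were higher in KI and none lower, with a median of 0.57, and the same 7 to 0 split held without WT replicate 1. With other libraries left out, 6 or 7 were higher and at most 1 lower. With length offsets 5 were higher and none lower, with a median of 0.44. Lifr, the leukaemia inhibitory factor receptor, was at 66.9, 97.4, 69.6 and 175 CPM in WT and 217, 214, 372 and 498 CPM in KI (1.67 ± 0.32, adjusted p = 0.0017). Il6ra, the IL-6 receptor, was at 15.4, 17.1, 20.8 and 31.4 against 62.4, 81.9, 40.9 and 33.2 CPM (1.36 ± 0.33, adjusted p = 0.0056). Stat3, the transcription factor below these receptors, was at 100.3, 97.4, 103 and 123 CPM in WT and 274, 200.2, 199 and 144 CPM in KI (0.95 ± 0.19, adjusted p = 0.0021). None of the 3 overlapped between groups. Osmr, the oncostatin M receptor, was at -0.32 (adjusted p = 0.52) and Socs3, the feedback inhibitor of STAT3, at 1.35 (adjusted p = 0.11), while Osm was too low to be tested.

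Some receptors of osteopontin were lower in KI. Itgb5, an integrin beta chain, was at 171, 119, 128 and 111 CPM in WT and 88.7, 86.8, 89.2 and 91.1 CPM in KI. KI values were close together and below all WT values, with a log2 fold change of -0.57 ± 0.13 (adjusted p = 0.0043). Cd44 was at 34.2, 22.2, 22.5 and 24.2 against 11.9, 18, 14.4 and 22.7 CPM (-0.63 ± 0.19, adjusted p = 0.018), with overlapping groups. Its call was lost without WT replicate 1, KI replicate 1 or KI replicate 3. Itgav, the alpha chain that pairs with Itgb5, was at 0.12 (adjusted p = 0.34). Of 10 receptor genes tested 3 were lower and none higher, against 17.4% lower and 19.6% higher over all genes. The lower count was 1 without WT replicate 1, 1 without KI replicate 3, and 5 with length offsets.

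Collagen genes were higher in WT livers on the NASH diet than in KI livers. Col1a1, a chain of type I collagen, was at 237, 62.2, 126 and 63.7 CPM in WT and 32.2, 14.7, 13.1 and 6.82 CPM in KI. Groups did not overlap, and the log2 fold change was -2.87 ± 0.50 (adjusted p = 0.00081). Col3a1, the chain of type III collagen, was at 545, 169.5, 314 and 164 against 71.0, 29.0, 41.0 and 25.6 CPM (-2.84 ± 0.42, adjusted p = 0.0003). Col1a2 fell with them (-2.63 ± 0.39, adjusted p = 0.00032). Of 18 collagens tested 14 were lower and 2 higher, with a median of -1.38. The exceptions were Col27a1, at 23.3, 23, 54.3 and 59.6 CPM in WT and 116, 133, 147 and 148 CPM in KI (1.76 ± 0.33, adjusted p = 0.0013), and Col18a1, the source of endostatin (0.50 ± 0.13, adjusted p = 0.0095, not past 0.05 with length offsets).

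Genes that process and surround collagen followed the same split. Among collagen processing and crosslinking genes 14 of 21 were lower and 2 higher, and Lox, a lysyl oxidase, was at -2.95, or -2.21 without WT replicate 1. Among proteoglycans, elastic fibre and matricellular genes 22 of 27 were lower and 1 higher. That gene was Fn1, fibronectin, which hepatocytes also secrete into plasma, at 938, 1084, 1434 and 1523 CPM in WT and 3673, 3901, 3563 and 2549 CPM in KI (1.46 ± 0.19, adjusted p = 0.00013). Eln, elastin, was at -3.28, or -1.96 without WT replicate 1.

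Matrix metalloproteinases and their inhibitors were lower for 14 of 24 and higher for 3, of which 1 was higher without WT replicate 1 and 1 without KI replicate 2. Mmp12, macrophage elastase, was at 35.6, 29.7, 29.3 and 21.3 CPM in WT and 2.51, 1.05, 0.271 and 0.789 CPM in KI. The groups were far apart, with a log2 fold change of -4.67 ± 0.47 (adjusted p = 6.8e-05), and -5.42 without KI replicate 1. Mmp13, a collagenase, was at -3.02 ± 0.55 (adjusted p = 0.0011). Timp1, a metalloproteinase inhibitor, was at -3.04, or -4.51 without KI replicate 2.

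Hepatic stellate cell and myofibroblast markers were lower for 10 of 20 and higher for none, with a median of -0.78. Their summed level was 881.5 to 1091 CPM in WT and 527 to 695 CPM in KI, without overlap. Vim, an intermediate filament gene of mesenchymal cells, was at 129, 56.5, 64.2 and 49.7 against 41.3, 17.6, 26.1 and 21.0 CPM (-1.50 ± 0.31, adjusted p = 0.0024). Cygb, a globin of stellate cells, was at 71.8, 23.4, 35.9 and 25.7 against 21.5, 17.7, 13.1 and 12.7 CPM (-1.27 ± 0.30, adjusted p = 0.005). Among TGF-beta, BMP and PDGF signalling genes 12 of 30 were lower and 3 higher, with 7 lower without KI replicate 2. Id1, a BMP target, was at -2.33 ± 0.39 (adjusted p = 0.00065) and Inhba, an activin chain, at 1.29 ± 0.27 (adjusted p = 0.0029).

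Lipid-associated macrophage markers formed the list with the highest share of lower genes, 18 of 21, with none higher and a median of -1.66. Gpnmb was at 39.0, 15.1, 54.3 and 23.9 CPM in WT and 0.912, 0.733, 0.135 and 0.371 CPM in KI, and its window is printed above. No WT library came near the KI range, and the log2 fold change was -5.99 ± 0.76 (adjusted p = 0.00013). Cd63, a lysosomal tetraspanin, was at 110.3, 22.0, 62.1 and 20.9 against 7.3, 5.45, 3.89 and 2.65 CPM (-3.48 ± 0.48, adjusted p = 0.0002), or -2.87 without WT replicate 1. Fabp5, a fatty acid binding protein, was at 1.18 (adjusted p = 0.057), the other way. The list holds Spp1 itself. Its summed level was 23610 to 40830 CPM in WT and 24710 to 33440 CPM in KI, with overlap, a sum in which Apoe, an apolipoprotein also made by hepatocytes, had 19030 to 37460 CPM in WT and 22540 to 31310 CPM in KI (-0.25, adjusted p = 0.42).

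Of resident Kupffer cell markers 1 of 20 was higher and 2 were lower, shares below the 19.6% and 17.4% over all genes. The list had a median of -0.10. The summed level of these markers was 850 to 1217 CPM in WT and 957 to 1449 CPM in KI, with overlap. Clec4f, a lectin restricted to Kupffer cells, was at 73.1, 121, 56.5 and 115 CPM in WT and 69.1, 107, 133 and 150.4 CPM in KI (0.33, adjusted p = 0.34). Cd163, the haemoglobin scavenger receptor, was the higher gene, at 0.131, 3.43, 1.86 and 12.8 against 21.2, 55.4, 40.0 and 19.4 CPM (2.88 ± 0.72, adjusted p = 0.007), or 4.27 without WT replicate 4. The lower count was 4 without KI replicate 4.

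Recruited monocyte markers were lower for 9 of 19 and higher for 1, with a median of -1.06. The lower genes include Lyz2, the locus that carries Cre, whose values are given above. The lower count was 6 without WT replicate 1, and 6 with length offsets, where the median was -0.82. Ccr2, the receptor that draws monocytes from blood, was at 12.9, 5.91, 10.8 and 6.96 CPM in WT and 2.46, 1.41, 2.5 and 1.11 CPM in KI. The groups did not overlap (-2.27 ± 0.38, adjusted p = 0.0006). Its ligand gene Ccl2 was at 6.41, 3.92, 4.08 and 3.14 against 0.821, 0.367, 0.541 and 0.743 CPM (-2.81 ± 0.38, adjusted p = 0.00019). Ms4a7, a monocyte-derived macrophage marker, was at -2.87 ± 0.47 (adjusted p = 0.00059). The summed level of the list ran the other way, 1480 to 1933 CPM in WT and 2769 to 4110 CPM in KI, a sum in which Fn1, the higher gene, had 938 to 1523 CPM in WT and 2549 to 3901 CPM in KI.

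MHC class II and dendritic cell genes were lower for 11 of 20 and higher for none, with a median of -1.30. H2-Aa, a class II alpha chain, was at 202, 109.9, 138 and 89.6 CPM in WT and 38.5, 14.2, 12 and 31.8 CPM in KI. All KI libraries lay below all WT libraries (-2.48 ± 0.37, adjusted p = 0.0003), and the beta chain H2-Eb1 was at -2.65 ± 0.41 (adjusted p = 0.00043). H2-Ea-ps, a class II pseudogene given further on, had no count in any WT NASH library and was present in all KI NASH libraries. The part of genetic background in the class II counts was not tested. Cd209a, a lectin of monocyte-derived dendritic cells, was at -3.22 ± 0.51 (adjusted p = 0.00049). T and NK cell markers had 1 of 19 higher and none lower, shares below the 19.6% and 17.4% over all genes. With length offsets 3 were higher. These markers summed to 17.2 to 39.3 CPM in WT and 21.2 to 30.7 CPM in KI.

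Chemokines were lower for 8 of 21, with 3 lower without WT replicate 1 and 5 without KI replicate 2 or KI replicate 3. TNF, interleukin and inflammasome genes were lower for 9 of 26 and higher for 2. Il1rn, the IL-1 receptor antagonist, was at 31.2, 12.3, 13.5 and 12.2 CPM in WT and 5.02, 2.62, 3.69 and 2.51 CPM in KI (-2.32 ± 0.43, adjusted p = 0.0013). Il1r1, the receptor that it blocks, moved the other way, at 35.9, 27.6, 23.8 and 38.0 against 99.0, 101, 138 and 101 CPM (1.81 ± 0.40, adjusted p = 0.0033). Tnfsf10, which encodes the death ligand TRAIL, was at 11.7, 8.95, 8.66 and 8.8 CPM in WT and 63.5, 43.5, 64.5 and 40.2 CPM in KI. All KI libraries were above all WT libraries (2.48 ± 0.34, adjusted p = 0.00021). Interferon-stimulated genes showed 1 of 21 lower and none higher, shares below the 17.4% and 19.6% over all genes.

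Cholangiocyte and ductular reaction markers were lower for 16 of 19 and higher for 1, with a median of -2.56, and summed to 269 to 928 CPM in WT and 162 to 268 CPM in KI. The list holds Spp1 itself, whose levels given above make up a large part of the WT sums. The separation of the sums therefore cannot be read apart from Spp1. Tspan8, a tetraspanin of biliary epithelium, was at 21.9, 3.1, 6.52 and 2.67 CPM in WT and 1.19, 0.419, 0.541 and 0.557 CPM in KI (-3.65 ± 0.62, adjusted p = 0.00069), or -2.59 without WT replicate 1. WT replicate 1 was the highest in this list, and without it 8 members were lower. The count was 10 without KI replicate 3. Onecut1, a transcription factor of biliary and hepatic progenitors that adult hepatocytes also express, was the higher gene, at 8.03, 5.64, 4.37 and 33.5 against 76.2, 12.8, 150.5 and 106 CPM (2.74, adjusted p = 0.01), with overlap, or 3.84 without WT replicate 4. Sox9, a biliary transcription factor, was at -0.89 (adjusted p = 0.16).

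Cell cycle genes were lower for 19 of 31 and higher for 1, and lower for 8 without WT replicate 1. Cdc20, an activator of the anaphase-promoting complex, was at 17.2, 2.54, 2.97 and 1.81 CPM in WT and 0.912, 0.419, 0.846 and 0.325 CPM in KI (-3.26 ± 0.73, adjusted p = 0.0039), or -1.93 without that library. Oncofetal and progenitor genes were lower for 10 of 16. H19, an imprinted fetal long non-coding RNA, was at 376, 8.73, 10.2 and 6.68 CPM in WT and 1, 0.471, 0.473 and 0.371 CPM in KI. WT replicate 1 was far above the others, and the log2 fold change of -7.43 ± 1.44 (adjusted p = 0.0016) became -3.87 without it.

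Cytoskeleton and annexin genes were lower for 22 of 31 and higher for none, with a median of -1.40. Anxa5, a calcium-dependent phospholipid-binding protein, had the lowest p of all genes and was chosen for that after its values were seen. It was at 411, 397, 397 and 300.0 CPM in WT and 92.5, 80.0, 79.9 and 73.4 CPM in KI, a narrow range in each group with no overlap (-2.21 ± 0.12, adjusted p = 1.5e-07). Tubb2b, a beta-tubulin, was at 2.75, 2.38, 3.01 and 2 against 0.319, 0.105, 0.0677 and 0.139 CPM (-3.98 ± 0.39, adjusted p = 6.3e-05).

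**Figure D5:**
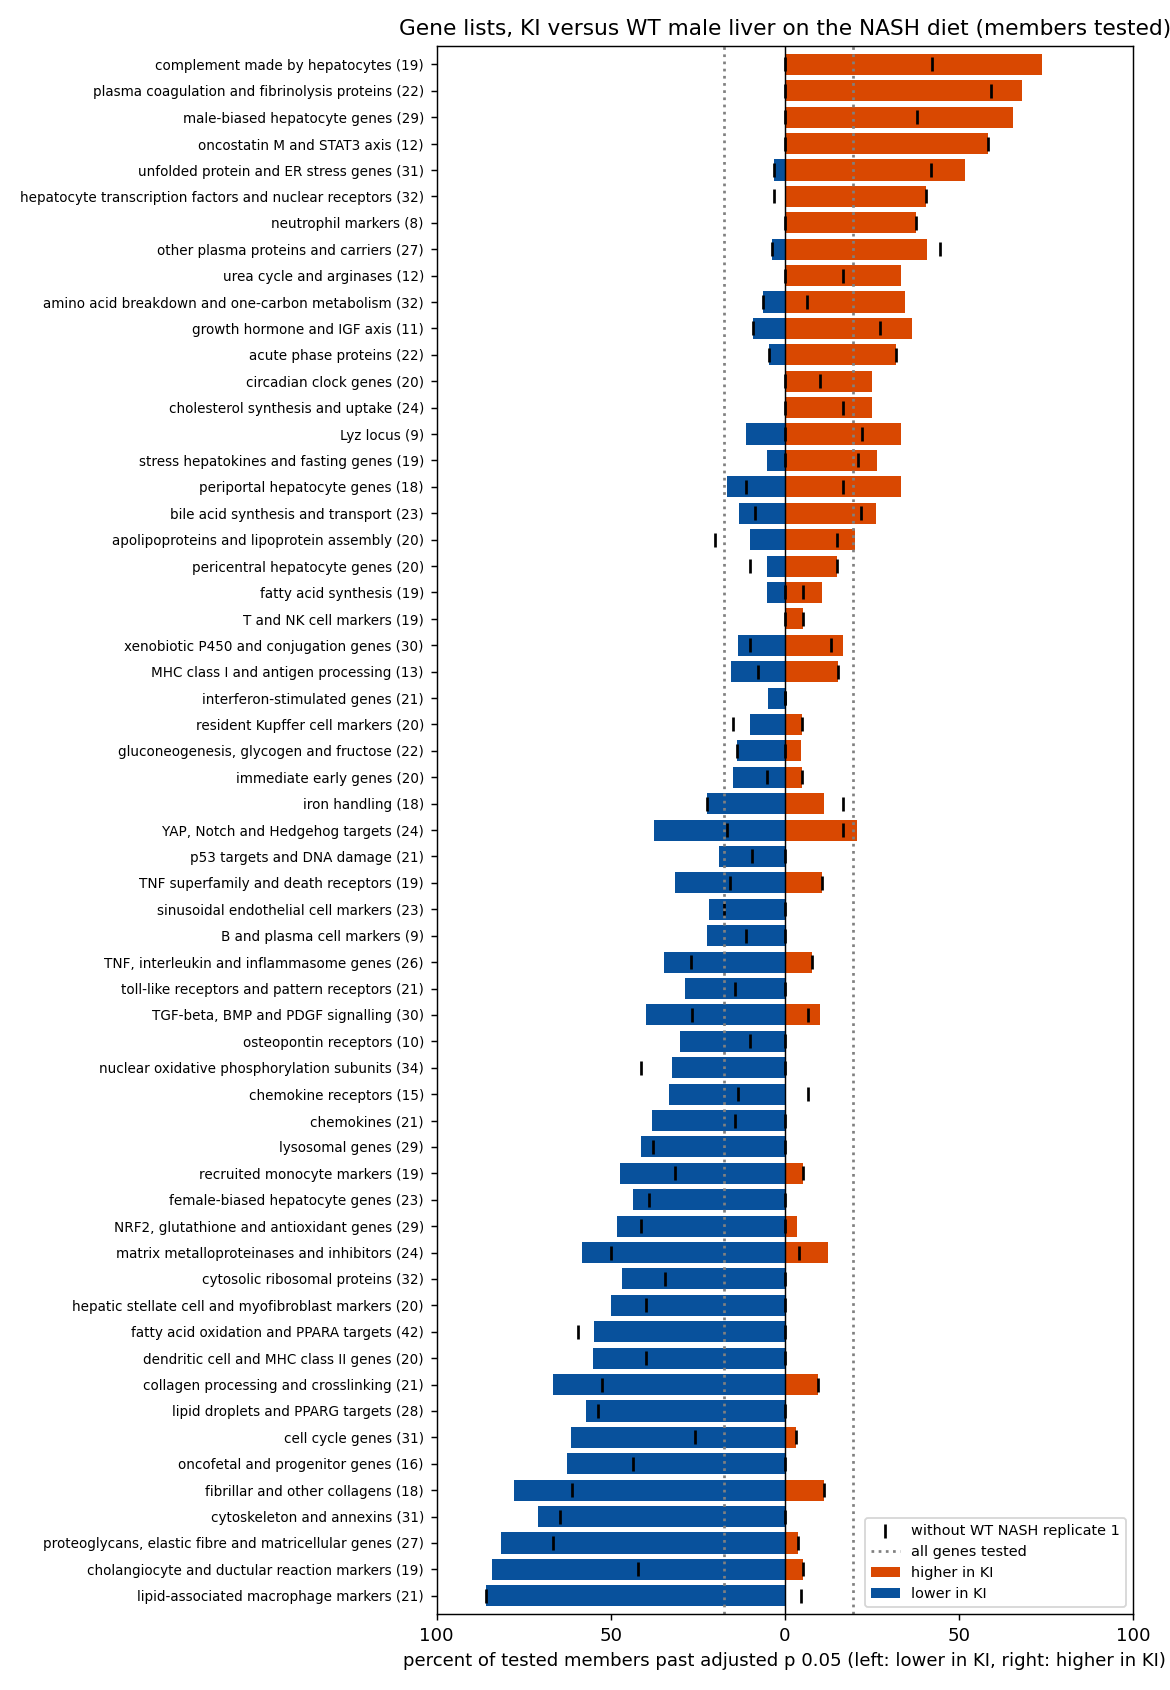
Share of each list's tested members past an adjusted p of 0.05 (x axis, lower in KI to the left, higher to the right), with the number tested in brackets and a tick for the share without WT NASH replicate 1. Dotted lines mark the 17.4% lower and 19.6% higher over all genes tested. Lipid-associated macrophage markers, at 18 of 21, reach farthest left, and complement genes, at 14 of 19, farthest right.

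Mogat1, a monoacylglycerol acyltransferase of steatotic hepatocytes, was at 3.58, 12.4, 6.93 and 9.27 CPM in WT and 0.593, 0.471, 0.778 and 0.278 CPM in KI. KI livers were uniformly low (-3.88 ± 0.40, adjusted p = 6.8e-05). Of 28 lipid droplet and PPARG target genes 16 were lower and none higher, with a median of -0.96. This became 10 without KI replicate 3 and 10 with length offsets. Pparg itself was at -1.02 (adjusted p = 0.057). Hsd17b13, a lipid droplet dehydrogenase of hepatocytes that is also in the periportal list, was at 1109, 756, 777 and 571 CPM in WT and 301, 247, 284 and 279.9 CPM in KI (-1.53 ± 0.19, adjusted p = 0.00011). Apoa4, an apolipoprotein of triglyceride-rich particles and 1 of the 2 lower genes of the apolipoprotein list given further on, was at 3591, 7960, 10430 and 6034 against 2790, 2381, 1513 and 685 CPM (-1.93 ± 0.40, adjusted p = 0.0025).

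Fatty acid oxidation and PPARA target genes were lower for 23 of 42 and higher for none, with a median of -0.59 and 25 lower without WT replicate 1. Cyp4a14, a fatty acid omega-hydroxylase induced by PPARA, was at 202, 349.7, 720.1 and 591 CPM in WT and 35.7, 12.8, 5.01 and 12.6 CPM in KI. The gap between groups was wide (-4.82 ± 1.31, adjusted p = 0.011), and the fold change was -5.53 without KI replicate 1. Acaa1b, a peroxisomal thiolase, was at 1517, 2444, 2656 and 2213 against 754, 672, 838 and 906 CPM (-1.48 ± 0.26, adjusted p = 0.00086). Aldh3a2, a fatty aldehyde dehydrogenase, was at 641, 1075, 1271 and 1383 against 452, 301, 323 and 371 CPM (-1.59 ± 0.36, adjusted p = 0.004). Cpt1a, the gate of mitochondrial oxidation, was at 456, 654, 871 and 794 CPM in WT and 996, 801, 774 and 601 CPM in KI, with overlapping groups (0.19, adjusted p = 0.48).

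Cholesterol synthesis and uptake genes were higher for 6 of 24 and lower for none, and higher for 3 without KI replicate 1. The first share was not far above the 19.6% higher over all genes. The last was below the share in its own fit, where 2170 of 12973 genes were higher. Stard4, a cytosolic sterol carrier, was at 26.7, 31.9, 40.0 and 39.8 CPM in WT and 97.2, 70.7, 90.7 and 72.3 CPM in KI (1.26 ± 0.16, adjusted p = 0.00013). Its groups did not overlap. Among bile acid genes 6 of 23 were higher and 3 lower, with 1 lower without KI replicate 2 or KI replicate 4. With all libraries these shares were near the 19.6% higher and 17.4% lower over all genes. Abcb11, the bile salt export pump, was higher (0.66 ± 0.17, adjusted p = 0.0075) and Abcb4, the phospholipid flippase, lower (-0.41 ± 0.11, adjusted p = 0.012).

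Fgb, the fibrinogen beta chain, was at 3453, 3407, 2689 and 3114 CPM in WT and 8159, 9081, 6480 and 5687 CPM in KI (1.22 ± 0.21, adjusted p = 0.00087). The alpha chain Fga (1.2 ± 0.23, adjusted p = 0.0015) and the gamma chain Fgg (1.04 ± 0.21, adjusted p = 0.0024) rose by a like amount. Coagulation and fibrinolysis genes were higher for 15 of 22 and lower for none, with a median of 0.40. Complement genes were higher for 14 of 19 and lower for none, with a median of 0.58; 8 were higher without WT replicate 1, 8 without WT replicate 3 and 9 without KI replicate 3. Masp1, a lectin pathway protease, was at 36.9, 42.3, 63.4 and 63.1 against 146, 135, 162 and 121 CPM (1.46 ± 0.19, adjusted p = 0.00014).

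Apolipoprotein and lipoprotein assembly genes were higher for 4 of 20 and lower for 2, with a median of 0.08 and between 1 and 4 lower when a library was left out. The share of higher genes was close to the 19.6% over all genes. Apob, the backbone of very low density lipoprotein, was at 2677, 3619, 4294 and 4640 CPM in WT and 7665, 8055, 8133 and 6576 CPM in KI (1.00, adjusted p = 0.00093). Lrp1, an endocytic receptor, was at 650.3, 638, 689 and 884 against 1745, 1453, 1855 and 1395 CPM (1.17 ± 0.14, adjusted p = 0.00011). Abca1, the cholesterol exporter, was at 1.06 ± 0.16 (adjusted p = 0.00031). Pzp, an alpha-2-macroglobulin family inhibitor, was at 3058, 3749, 3918 and 4761 CPM in WT and 7823, 7885, 7687 and 6379 CPM in KI (0.94, adjusted p = 0.00049). No KI library fell into the WT range for any of these. Alb, albumin, was at 74150, 63720, 61920 and 61030 against 94910, 78530, 64100 and 59520 CPM (0.19, adjusted p = 0.53), with overlap. Other plasma proteins and carriers were higher for 11 of 27 and lower for 1. Among acute phase proteins 7 of 22 were higher and 1 lower. The higher genes included Saa4, a constitutive serum amyloid A (1.68 ± 0.35, adjusted p = 0.0027).

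Cps1, the first enzyme of the urea cycle, was at 1639, 1907, 1742 and 2342 CPM in WT and 5049, 5556, 5075 and 4910 CPM in KI. All KI values were above all WT values (1.43 ± 0.20, adjusted p = 0.00023). Arg1, the last enzyme of the cycle, was at 687, 822, 650.4 and 713 against 804, 772, 789.7 and 712 CPM, with overlap (0.10, adjusted p = 0.63). Of 12 urea cycle and arginase genes 4 were higher, and 2 without WT replicate 1, 2 or 3 or KI replicate 1. Arg2, the mitochondrial arginase, was at 0.91 (adjusted p = 0.31).

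Hepatocyte transcription factors and nuclear receptors were higher for 13 of 32 and lower for none, with a median of 0.54. Thrb, a thyroid hormone receptor, was at 18.6, 29.5, 29.5 and 31.7 CPM in WT and 59.8, 55.1, 53.6 and 47.4 CPM in KI (0.98 ± 0.14, adjusted p = 0.00023). Prox1, a hepatoblast and hepatocyte factor, was at 1.30 ± 0.34 (adjusted p = 0.0089). Pericentral genes showed 3 of 20 higher and 1 lower, shares below the 19.6% higher and 17.4% lower over all genes. Cyp1a2, a xenobiotic P450, was at 72.7, 192, 111 and 236 against 426, 319, 368 and 606 CPM (1.49 ± 0.34, adjusted p = 0.0044). Without the averaged WT control library 6 pericentral genes were higher. Periportal genes showed 6 of 18 higher and 3 lower, with 3 higher without WT replicate 1.

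Among xenobiotic P450 and conjugation genes 5 of 30 were higher and 4 lower, shares below the 19.6% higher and 17.4% lower over all genes. Cyp3a11, the main murine CYP3A enzyme, was at 3500, 1892, 2198 and 1780 CPM in WT and 901, 430.5, 170.3 and 485 CPM in KI (-2.24 ± 0.44, adjusted p = 0.0019), while Cyp2c70, which hydroxylates bile acids, was at 202, 255, 112 and 215 against 600.5, 869, 568 and 762 CPM (1.84 ± 0.25, adjusted p = 0.00017). Neither overlapped between groups. With length offsets the split was 9 higher and 2 lower, and 10 were higher without WT replicate 4. The lower count was 2 without WT replicate 2, KI replicate 1 or KI replicate 2. NRF2, glutathione and antioxidant genes were lower for 14 of 29 and higher for 1. Gstm1, a glutathione transferase, was at 2355, 1853, 1572 and 1693 against 954, 722, 850.2 and 1066 CPM (-1.06 ± 0.16, adjusted p = 0.00034). Fth1, the ferritin heavy chain, was at 1662, 2273, 2283 and 2331 against 915, 984, 1092 and 1294 CPM (-1.0 ± 0.17, adjusted p = 0.00065).

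Unfolded protein and ER stress genes were higher for 16 of 31 and lower for 1, with a median of 0.59. Hyou1, an ER chaperone, was at 92.8, 102, 119 and 142 CPM in WT and 373, 469, 349 and 261 CPM in KI (1.67 ± 0.27, adjusted p = 0.00051). Creld2, a secreted ER stress product, was at 1.76 ± 0.41 (adjusted p = 0.0047). Trib3, a pseudokinase induced by the ATF4 branch, was the lower gene, at 19.7, 17.7, 8.71 and 5.66 against 2.42, 2.51, 2.74 and 4.78 CPM (-2.05 ± 0.44, adjusted p = 0.0029). Chac1, another target of that branch, was higher (1.65 ± 0.39, adjusted p = 0.005). These genes were also higher in KI on the control diet for 5 of 31 (2.75% over all genes), where Hyou1 was at 166 to 340.1 CPM in WT and 405 to 788 CPM in KI.

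Of 22 gluconeogenesis, glycogen and fructose genes 3 were lower and 1 higher, or between 0 and 3 higher when a library was left out, shares below the 17.4% lower and 19.6% higher over all genes. Hk2, a hexokinase low in healthy hepatocytes, was at 12.7, 8.57, 14.2 and 10.3 CPM in WT and 3.06, 1.89, 3.99 and 3.94 CPM in KI (-1.82 ± 0.36, adjusted p = 0.0019). Pkm, pyruvate kinase M, was at 73.8, 50.2, 70.3 and 50.6 against 33.8, 26.5, 28.8 and 32.2 CPM (-1.01 ± 0.15, adjusted p = 0.00025). Both were lower in all KI libraries than in all WT libraries. Ptch1, the Hedgehog receptor, was at 11.7, 7.35, 12 and 13.1 against 31.7, 21.4, 75.8 and 41.7 CPM (1.95 ± 0.33, adjusted p = 0.00072), and Hey1, a Notch target, was lower (-2.24 ± 0.40, adjusted p = 0.001). Of 24 YAP, Notch and Hedgehog targets 9 were lower and 5 higher, the latter share near the 19.6% over all genes. The lower count was 4 without WT replicate 1 and 5 without KI replicate 1. The higher count was 3 without WT replicate 2, WT replicate 3 or KI replicate 2, and 1 with length offsets.

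Several lists showed few calls or calls that rested on single libraries. Fatty acid synthesis genes were higher for 2 of 19 and lower for 1, with between 1 and 4 higher and between 0 and 2 lower when a library was left out, and Fasn, fatty acid synthase, did not pass (0.59, adjusted p = 0.19). Sinusoidal endothelial markers were lower for 5 of 23, as was Plvap, a fenestral diaphragm protein, at 74.5, 84.1, 93.5 and 81.7 CPM in WT and 39.2, 42.7, 40.3 and 51.4 CPM in KI (-0.94 ± 0.15, adjusted p = 0.00049). The share of lower endothelial genes was near the 17.4% over all genes. Without WT replicate 4, 3 endothelial genes were higher. Amino acid breakdown genes were higher for 11 of 32 and lower for 2, but higher for 2 without WT replicate 1, WT replicate 3, KI replicate 3 or KI replicate 4, for 5 without WT replicate 2, and for 6 or 7 without KI replicate 1, WT control replicate 2 or KI control replicate 1, 2 or 3. Neutrophil markers were higher for 3 of 8, and for none without WT replicate 2 or 4 or KI replicate 2 or 4, and 1 without KI replicate 3. Their summed level was 81.9 to 410 CPM in WT and 27.4 to 316 CPM in KI, with overlap, a sum in which Lcn2 had 73.6 to 397 CPM in WT and 6.03 to 296 CPM in KI (-0.49, adjusted p = 0.73). S100a9, a calprotectin chain, was at 3.23, 1.16, 2.31 and 1.3 CPM in WT and 2.19, 6.6, 6.33 and 7.42 CPM in KI, with overlap. Its log2 fold change of 1.49 ± 0.48 (adjusted p = 0.027) was not past the threshold without WT replicate 2 or 4 or KI replicate 2, 3 or 4.

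Lysosomal genes were lower for 12 of 29, nuclear oxidative phosphorylation subunits for 11 of 34 and cytosolic ribosomal proteins for 15 of 32, with none higher in the 3 lists. Genes of the last 2 lists are short, and with length offsets 2 subunits were lower and 1 higher, and 3 ribosomal proteins were lower and 1 higher. Oxidative phosphorylation calls also fell to between 5 and 7 when WT replicate 2 or 3 or KI replicate 1, 2 or 3 was left out. Rps19, a small-subunit protein, was at 91.6, 88.1, 79.1 and 89.2 CPM in WT and 55.4, 53.7, 56.0 and 62.8 CPM in KI (-0.61 ± 0.08, adjusted p = 0.00019).

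A few genes were absent from 1 group. H2-Ea-ps, a class II pseudogene of the H2-E alpha chain, had no count in any WT NASH library and 13.3, 5.29, 4.23 and 9.84 CPM in KI. Against a floor of 3 counts over the WT libraries, 0.0365 CPM, its summed level of 7.81 CPM in KI was at least 214-fold higher; its fitted difference passed in edgeR (adjusted p = 0.0083) and not in limma-voom with sample quality weights (adjusted p = 0.073). Gm11127, a class I-like gene, also had no count in WT and stood at 8.98, 4.09, 5.41 and 5.11 CPM in KI, at least 160-fold higher. Both were also present in the library labelled WT control replicate 1, at 6.98 and 5.13 CPM. Mug2, a murinoglobulin, was at 25.3, 18.4, 14.2 and 8.69 CPM in WT and 522, 788, 392 and 712 CPM in KI (5.18 ± 1.15, adjusted p = 0.0036), yet WT control replicate 1 held 19.1 CPM and WT control replicate 2 held 577 CPM. Genetic background and the genotype labels cannot be told apart for such genes.

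The KI contrast on the NASH diet was then set against that on the control diet, which used the same fit of 4 groups. On the control diet 601 genes passed (4.63%), 357 (2.75%) higher and 244 (1.88%) lower in KI. The difference between the 2 contrasts passed for 147 of 12988 genes (1.13%), 72 (0.554%) more positive and 75 (0.577%) more negative on the NASH diet. This count depended on single libraries: it was 626 without the averaged WT control library, 22 and 25 without WT control replicates 1 and 2, and 79, 56 and 18 without WT NASH replicates 1, 2 and 3. It was 27, 25 and 30 without KI control replicates 1, 2 and 3, and 52, 55, 22 and 55 without KI NASH replicates 1 to 4.

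Anxa5, Gpnmb, Mmp12 and Stard4 passed in that comparison whichever library was left out. Anxa5 was at 79.7, 76.6 and 88.5 CPM in WT control and 56.1 to 65.1 CPM in KI control, against 300.0 CPM or more in WT NASH and 73.4 to 92.5 CPM in KI NASH, and the difference of contrasts was -1.79 (adjusted p = 0.00034). Gpnmb was at 0.241, 0.287 and 0.443 CPM in WT control and 0.101 to 3.36 CPM in KI control (-7.95, adjusted p = 0.012). Mmp12 was at 0.16, 0.631 and 0.822 CPM against 0.561 to 1.11 CPM (-5.30, adjusted p = 0.012). Stard4 was at 101, 142 and 116 CPM in WT control and 68.6 to 90 CPM in KI control, an order opposite to that on the NASH diet (1.88, adjusted p = 0.0038). By list, 6 of 21 lipid-associated macrophage markers, 5 of 20 MHC class II genes and 4 of 31 cytoskeleton and annexin genes were more negative. H2-Aa, Col3a1 and Moxd1 passed with all libraries (-2.78, -2.71 and 10.61) but in only 7, 3 and 1 of 15 fits with a library left out.

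In female livers on the NASH diet, 15 of 13010 genes passed between KI and WT (0.115%). The KI effect differed between the sexes for 1464 genes (11.3%), with 547 (4.2%) more positive and 917 (7.05%) more negative in females. That count was 973 without male KI replicate 3, 958 without female KI replicate 4 and 934 without female WT replicate 4. Spp1 was at 51.1 to 99.2 CPM in WT females and between 26.9 and 54.7 CPM in KI females (-1.23, adjusted p = 0.28), and its sex difference did not pass (1.67, adjusted p = 0.091). Anxa5 was at 92.0 to 133 CPM in WT females and between 75.1 and 104 CPM in KI females, a sex difference of 1.81 (adjusted p = 0.00036). Gpnmb was at 0.581 to 7.29 and 0.39 to 5.62 CPM (5.21, adjusted p = 0.0094).

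Fatty acid oxidation genes differed by sex for 22 of 42, all more positive in females. Cyp4a14 was at 1064 to 1608 CPM in WT females and between 1928 and 2194 CPM in KI females, against the fall in males (5.46, adjusted p = 0.00056). Cps1 did not pass in females, at 2965 to 7323 and 3280 to 5566 CPM (sex difference -1.81, adjusted p = 0.0039). Male-biased genes were more negative in females for 8 of 28 and female-biased genes more positive for 10 of 31. Cyp7b1 was at 15.6 to 31.6 CPM in WT females and between 14.9 and 41.4 CPM in KI females, with overlap (sex difference -2.82, adjusted p = 0.0055).

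Sorted resident macrophages of male mice on the NASH diet (5 WT and 5 KI libraries) had the opposite order of mean Spp1 levels, with overlapping ranges. It was at 24.2 ± 24.5 CPM in WT (SD, n = 5, 5.65 to 53.3) and 99.9 ± 71.6 CPM in KI (SD, n = 5, 41.5 to 199.6), a log2 fold change of 2.05 ± 0.62 that did not pass (adjusted p = 0.089). There 408 of 13036 genes passed (3.13%), 342 (2.62%) higher and 66 (0.506%) lower in KI. In edgeR none passed without WT NASH replicate 1 or without WT NASH replicate 5, with 1591 and 2274 genes at an unadjusted p under 0.05. The count was 147, 262 and 975 without WT NASH replicates 2, 3 and 4, and 89 and 800 without KI NASH replicates 4 and 5. Other plasma proteins were higher for 22 of 28 and coagulation genes for 15 of 21. Fgb, a hepatocyte product, was at 2.25 to 13.3 CPM in WT and 21.6 to 150.8 CPM in KI (2.99 ± 0.57, adjusted p = 0.018). The part of hepatocyte RNA in those calls was not tested. None of the 21 lipid-associated macrophage markers passed, and Gpnmb was at 13.4 to 857 CPM in WT and 52.4 to 1300 CPM in KI (1.33 ± 1.01, adjusted p = 0.51). Adgre1, which encodes F4/80, one of the sorting markers, was at -0.37 ± 0.10 (adjusted p = 0.049), and Clec4f at -0.44 ± 0.30 (adjusted p = 0.47). The macrophage fit also used a WT control replicate 4 library with high Xist under a male label.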

How the data were processed

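The deposited tables hold raw counts per gene symbol, made by the authors from Illumina TruSeq Stranded mRNA libraries, per the labels' protocols; the genome build was mm10, per the submitters' processing notes. Which aligner, counter and strand option were used is not given in the sources used here; counts of paralogs and overlapping genes are therefore uncertain. Male liver libraries held 11245097 to 29966174 counts. Every column of the tables was mapped to a sample by its title.

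Counts were fitted in edgeR 4.0.16 (R 4.3.3, TMM scaling, filterByExpr with a minimum count of 10 and a minimum total of 15, quasi-likelihood test, 2-sided, Benjamini-Hochberg over all genes tested, threshold 0.05) with 4 groups of genotype and diet, so that all male livers share the estimate of the spread. WT control replicates 3 and 4 were averaged. The diet and sex differences were interaction terms, and macrophages were fitted alone. Levels are TMM-scaled CPM, and SE is the log2 fold change divided by the square root of F. Exonic lengths came from GENCODE and matched 12939 genes. The fit was tested on simulated data.

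Genes were named by rule: genes of the study's theme, the 12 largest non-overlapping fold changes and the 8 largest CPM differences in each direction, and up to 3 called genes per direction and list; members that did not pass are given where their role calls for it. Not every gene that the rule selects is named in the text, and 1 item is not reported here. The members and lists were chosen with earlier results of these data known. Alternatives were RLE scaling, no filter, DESeq2 1.42.0, limma 3.58.1 (voom), NASH libraries alone, a replicate block, length offsets, a fold threshold and each library left out.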

Additional observations from a re-analysis of the deposited data

Results flagged for a closer look

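Over genes named by fold or theme, a single library stood apart by Dixon's criterion in 9 of 68 groups of 4 libraries. Chance meets the criterion in about 1 in 20 groups if values are normally spread, and it was applied to CPM without a log. In WT NASH replicate 1 the genes that stood apart were Cd44 at 34.2 CPM, H19 at 376 CPM and Cyp2a4 at 599 CPM. Capn8 was high in WT NASH replicate 4, at 1.26 CPM. Among KI NASH libraries, replicate 1 stood apart for H19 at 1.00 CPM, replicate 2 for E030018B13Rik at 9.95 CPM and Elovl7 at 0.419 CPM, and replicate 3 for C4a at 821 CPM and 6030419C18Rik at 0.102 CPM.

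The KI effect differed between diets for 147 genes and between sexes for 1464 genes. Among genes named by fold or theme, the diet difference was 10.61 for Moxd1, -7.95 for Gpnmb, -5.30 for Mmp12 and -4.77 for Gprc5b, on the log2 scale. The female minus male difference was 6.55 for Lyz2, -9.82 for E030018B13Rik, -5.33 for Mug2, 6.54 for Cyp2a4, 5.21 for Gpnmb, 5.46 for Cyp4a14, 3.54 for Elovl7 and 4.08 for Mmp12.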

How the results depend on the processing

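The count of genes between KI and WT male livers on the NASH diet was 3799 to 5252 with 1 library left out and 863 when tested against a fold of 1.5; no other alternative moved it by over 1.5 times. The diet difference counted 719 genes in DESeq2, 87 with a replicate block, 626 without the averaged WT control library and 18 to 170 with any other library left out. The sex difference counted 934 to 1777 genes, and the macrophage comparison 0 to 975, with 1 library left out; the latter counted 794 in DESeq2. The cause of these shifts was not tested. Whether replicate numbers pair the samples is not stated by the labels and was not settled. Correlations of deviations ran from -0.028 to 0.230 for same-numbered KI and WT NASH libraries and from -0.292 to 0.098 for differently numbered ones. Those of replicate 1 (0.230) and replicate 4 (0.172) were the highest of all. With NASH libraries alone and a replicate block 3945 genes passed. Of 232 named genes, most of them chosen for passing in this same fit, 1 changed sign. This was Itgav, at -0.20 with length offsets, short of the threshold in both fits. The call was lost for 44 named genes without WT NASH replicate 1 and for 42 without KI NASH replicate 2. It was lost for 40 with length offsets and for 110 when tested against a fold of 1.5. With 4 libraries a group and 1 tissue lysate each, small changes and changes in cell number are limits of these data.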
